A study of Mus musculus with 4 samples.

Results

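The genes described here are those of the ribosome and its translation factors: every gene in the deposited table whose symbol begins with Rpl or Rps and a digit, Rplp, Rpsa, Mrpl or Mrps and a digit, Eif or Eef. The rule found 39 of the 3760 listed genes. They comprised 20 proteins of the cytosolic ribosome, 4 of the mitochondrial ribosome, 8 genes with initiation factor names and 1 with an elongation factor name. The rule also took in 5 kinases named after ribosomal protein S6 (Rps6k names), which are not part of the ribosome, and 1 entry annotated as a pseudogene, Rps15a-ps4. Among protein-coding genes of the GENCODE M21 annotation, 249 symbols fit the rule, and 38 of these were in the table. Listed were 20 of 86 cytosolic ribosomal proteins, 4 of 78 mitochondrial ones, 8 of 55 initiation names, 1 of 14 elongation names and 5 of 10 S6 kinases. Eef1a1, Eef1a2, Eef2, Rpl3l, Eif4e, Eif4ebp1, Eif4ebp2, Eif4ebp3, Eif5a and Eif6 were not in the table and were not analysed here.

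RNA-seq was performed on cultured myoblasts, the dividing precursor cells of muscle fibres, taken from skeletal muscle of adult C57BL/6 mice and called Twist2-positive by the labels. All 4 groups were grown on matrigel in Ham's F10 with 20% FBS and infected for 24 hours with a retrovirus carrying either GFP or Twist2, whose product is a transcription factor of the bHLH class, followed by 24 hours in growth medium. GFP and Twist2 cells in growth medium were harvested at that point, and GFP and Twist2 cells in differentiation medium were harvested 5 days after the change to high-glucose DMEM with 2% horse serum. Each group had 1 library, so there is no replicate check, and differences below compare libraries.

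Total reads ranged from 9235281 to 12362290 per library. Twist2 was listed at 1 read in GFP growth medium and at 0 reads in GFP differentiation medium, where a count of 0 allows up to 0.325 CPM, against 1438 CPM and 674 CPM in the Twist2 growth and differentiation libraries. The name Twist2-positive thus has almost no Twist2 reads behind it in the GFP libraries. Myogenic markers were present in all 4 libraries (8 of 9 listed), and their summed level was 4570 CPM in GFP growth medium, 42603 CPM in GFP differentiation medium, 1961 CPM in Twist2 growth medium and 10343 CPM in Twist2 differentiation medium. Myh3 alone held 27313 CPM of the sum in GFP differentiation medium. Pax7 (78.7, 4.01, 60.5 and 34.6 CPM) and Myod1 (1184, 810, 547 and 1068 CPM) were lower there than in GFP growth medium, and the other listed markers were higher. Of 8 fibroblast and fibro-adipogenic markers 3 were listed, with summed levels of 464, 294, 923 and 1086 CPM in the same order. Most of each sum was Gsn, at 451, 293, 879 and 1018 CPM, so the sums mainly follow this gene. Ly6a was at 11.0, 0, 32.9 and 3.32 CPM, and Dcn at 1.95, 1.19, 10.6 and 64.6 CPM. None of the 6 endothelial, 6 macrophage, 5 adipocyte or 4 glial markers was in the table. A marker expressed at a steady level would also be missing, because the table holds only genes that changed 2-fold from GFP growth medium.

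Ribosomes translate messenger RNA into protein. Cytosolic ribosomes join a large and a small subunit, initiation factors bring the mRNA and the first tRNA to the small subunit, and elongation factors move the ribosome along the message. Mitochondria keep their own ribosomes, whose proteins are encoded in the nucleus and imported, and which make subunits of the respiratory chain. Dividing cells spend much of their synthesis on cytosolic ribosomes, whereas muscle fibres are rich in mitochondria. Many ribosomal protein and translation factor mRNAs begin with a terminal oligopyrimidine tract, a C followed by a run of C or T, through which their translation is coupled to growth signalling by mTORC1.

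Levels are given in CPM, which relates the reads on a gene to all reads of that library, in the order GFP growth, GFP differentiation, Twist2 growth and Twist2 differentiation medium. A log2 ratio compares CPM + 1 between 2 libraries, and a gene is counted as higher or lower when it is at least 2-fold different and reaches at least 10 CPM in the higher library. Brackets hold the exact conditional 95% interval of the log2 ratio of reads, without the added 1. It covers counting error only, because the reads carry no molecular identifiers and PCR copies count again.

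The listed members of the cytosolic and the mitochondrial ribosome went in opposite directions when GFP cells were moved to differentiation medium. The 20 listed cytosolic ribosomal proteins were lower, with a median log2 ratio of -1.15, and the 4 listed mitochondrial ribosomal proteins were above 0, with a median of 1.02, where 40.9% of all listed genes tested were lower and 42.8% were above 0. The table lists only genes at least 2-fold different from GFP growth medium in at least 1 library. Each of these proteins passed that limit in a differentiation library. The limit takes both directions, so it set the least size of a listed difference and not its sign. Mrpl41 and Mrps34 passed it only in Twist2 differentiation medium, so it set no least size for their GFP values. GFP growth medium is the reference of both ratios, so their listing still favours a GFP value above 0. The values say nothing of the other 66 cytosolic and 74 mitochondrial names. Summed over its members, the cytosolic group took 8633 CPM in GFP growth medium and 3751 CPM in GFP differentiation medium, which is 43.4% of the growth level. The mitochondrial group took 138 and 280 CPM, or 203% of the growth level. The Twist2 libraries moved the same way, the cytosolic group from 9466 to 5079 CPM (53.7%) and the mitochondrial group from 133 to 253 CPM (190%). In bulk RNA, fewer cells of a type and less RNA per cell cannot be told apart.

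In the comparison of GFP differentiation with GFP growth medium, 27 of the 39 members were lower and 7 were higher, where 40.9% of all listed genes tested were lower and 32.6% were higher. Of the members, 10 had a log2 ratio above 0, against 42.8% of all listed genes. Nothing is read from this count, because the table is itself a selection: a gene is listed only if its CPM differs at least 2-fold from GFP growth medium in at least 1 of the authors' comparisons. Of the members, 34 passed that limit in GFP differentiation medium, 29 of them only there, and 10 passed it in Twist2 differentiation medium, 5 of them only there. Of the cytosolic proteins 18 of 20 passed it only in GFP differentiation medium, the exceptions being Rpl3 and Rps12, which passed it in both. None passed it in Twist2 growth medium. The cytosolic proteins lay close to the limit, with 13 of 20 between -1.2 and -1, so those with smaller differences would not be listed.

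**Figure D1:**
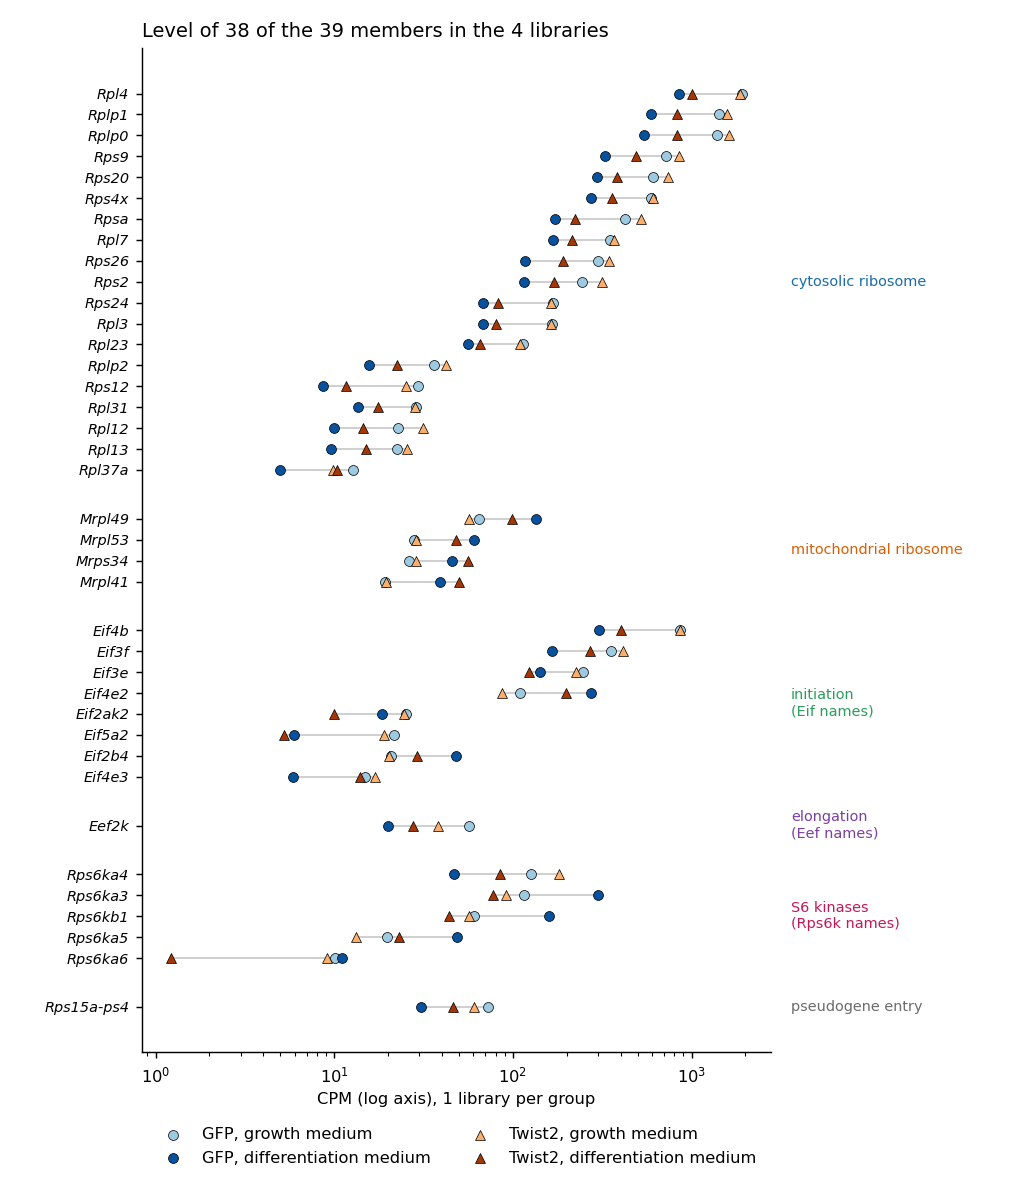
Level of 38 of the 39 members in CPM (log axis) in the 4 libraries, 1 point per library, with circles for GFP and triangles for Twist2 cells and dark symbols for differentiation medium. In the cytosolic ribosome the GFP differentiation library is the lowest of the 4 for every member shown, while in the mitochondrial ribosome the 2 differentiation libraries lie above the 2 growth libraries for every member.

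Among the large subunit proteins, the 3 stalk proteins that recruit elongation factors to the ribosome were lower in GFP cells and had log2 ratios between -0.96 and -0.89 in Twist2 cells. Rplp0, the base of the stalk, was at 1393, 544, 1619 and 831 CPM. Its log2 ratio in GFP cells was -1.36 [-1.40, -1.31] and in Twist2 cells -0.96 [-0.996, -0.93]. Rplp1 was at 1420, 594, 1574 and 831 CPM, with log2 ratios of -1.26 in GFP and -0.92 in Twist2 cells. Rplp0 and Rplp1 kept nearly the same proportion in the 4 libraries, with a ratio of Rplp0 to Rplp1 between 0.916 and 1.03. Rplp2 was at 36.3, 15.6, 42.3 and 22.3 CPM, with a log2 ratio in GFP cells of -1.17 [-1.51, -0.94]. Per coding kilobase, its level in GFP growth medium was 104 CPM against 4115 CPM for Rplp1.

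Rpl4, which lines the exit tunnel for the new protein, had the most reads of the members, at 1915, 851, 1854 and 1009 CPM. Its log2 ratios were -1.17 [-1.21, -1.13] in GFP and -0.88 [-0.91, -0.85] in Twist2 cells, the narrowest intervals of the set because of its depth of 7856 to 20522 reads. Rpl3, which lies at the peptidyl transferase centre, was at 164, 67.9, 162 and 80.8 CPM, with log2 ratios of -1.26 and -0.998. The paralogue that replaces Rpl3 in mature muscle, Rpl3l, was not analysed here. Rpl12, at the stalk base, was at 22.9, 9.96, 31.5 and 14.4 CPM, with log2 ratios of -1.12 and -1.08. Among the remaining large subunit proteins, log2 ratios in GFP cells spanned -1.20 (Rpl37a) to -1.02 (Rpl23 and Rpl31).

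Rpl37a stood apart from the other 19 in Twist2 cells. It was at 12.7 CPM in GFP growth medium, 4.98 CPM in GFP differentiation medium, 9.85 CPM in Twist2 growth medium and 10.4 CPM in Twist2 differentiation medium. The log2 ratio was -1.20 [-1.87, -0.85] in GFP cells and 0.07 [-0.31, 0.45] in Twist2 cells, the only positive value among the cytosolic proteins there. These values rest on 46 to 128 reads per library.

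The small subunit held the largest difference of the cytosolic group. Rps12 was at 29.5, 8.66, 25.2 and 11.6 CPM, with a log2 ratio of -1.66 [-2.14, -1.40] in GFP and -1.05 [-1.41, -0.82] in Twist2 cells, from 80 to 287 reads. Rps26, which contacts the mRNA near its exit from the ribosome, was at 298, 117, 344 and 191 CPM, with log2 ratios of -1.34 and -0.85. Rpsa, which is also known as the laminin receptor, was at 423, 172, 521 and 224 CPM. Its log2 ratios were -1.29 [-1.38, -1.21] in GFP and -1.22 [-1.28, -1.15] in Twist2 cells, the lowest value of the cytosolic group in Twist2 cells. Rps24 was at 167, 67.6, 164 and 83.0 CPM, with log2 ratios of -1.29 and -0.97. The other 4 (Rps2, Rps4x, Rps9 and Rps20) lay between -1.12 and -1.02 in GFP cells and between -0.93 and -0.76 in Twist2 cells. Medians in GFP cells were -1.15 over 12 large and -1.20 over 8 small subunit proteins. The listing limit holds these values together, so whether the subunits differ cannot be read from them.

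Windows around the transcription start are shown for the 5 cytosolic proteins with the most negative log2 ratios in GFP cells among those with a RefSeq entry (GRCm38.p6), and for Rpl4, the member with the most reads, because the tract at the first bases of the message is the feature these mRNAs are known for. Each holds 40 bases before the start and 20 from it, 5′ to 3′ on the gene's strand, and capitals mark runs of a C followed by at least 5 bases that are C or T.
Rps12, chr10:23787190-23787249, minus strand: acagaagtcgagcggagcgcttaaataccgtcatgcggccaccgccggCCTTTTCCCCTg
Rplp0, chr5:115559427-115559486, plus strand: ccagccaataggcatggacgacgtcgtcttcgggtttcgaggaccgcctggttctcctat
Rps26, chr10:128626487-128626546, minus strand: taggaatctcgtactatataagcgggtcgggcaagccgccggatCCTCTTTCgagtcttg
Rpsa, chr9:120127726-120127785, plus strand: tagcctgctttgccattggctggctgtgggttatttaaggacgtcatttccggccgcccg
Rps24, first of its 2 starts, chr14:24490638-24490697, plus strand: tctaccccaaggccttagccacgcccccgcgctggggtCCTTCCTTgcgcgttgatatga
Rpl4, chr9:64173347-64173406, plus strand: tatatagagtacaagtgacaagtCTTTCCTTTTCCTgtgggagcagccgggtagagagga

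A run was found in 10 of 15 cytosolic ribosomal genes with an entry and in 2 of 3 mitochondrial ribosomal genes. It was also found in 2 of 6 initiation names, 1 of 1 elongation names and 0 of 4 S6 kinases. A run could lie anywhere in the window and need not be at the first bases of the message. The run of Rpl4 began at position -17 from the start, that of Rps12 at 9 and that of Rps24 at -2. Over all 27025 genes of the promoter table the share was 45.3%, and over the 2815 listed genes with an entry it was 46.4%. Rplp0 and Rpsa, both with strongly negative ratios, had no run in their windows. The match describes letters in this window only, and the window depends on the RefSeq start. Of the 39 members, 29 had an entry, and among the 10 without one were Rpl3, Rpl7, Rplp1 and Rps20.

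In the comparison of Twist2 differentiation with Twist2 growth medium, 7 of 39 members were lower and 2 were higher, where 24.5% of all listed genes tested were lower and 26.5% were higher. Of the 39, 38 reached the 10 CPM minimum. Of the cytosolic proteins, 3 of 20 were lower (Rpsa, Rpl12 and Rps12), and 1 of 20 had a log2 ratio above 0, against 46.2% of all listed genes. The cytosolic median was -0.88, where that of all listed genes was -0.22. The 18 cytosolic proteins listed only for a low value in GFP differentiation medium can be set beside the 862 genes of the table listed in that same way. Of the 18, 17 were below 0 in Twist2 cells with a median of -0.86, and of the 862 genes 82.8% were below 0 with a median of -0.52. The listing also fixes that no gene of this kind was 2-fold below GFP growth medium in Twist2 differentiation medium. The log2 ratio was less negative in Twist2 than in GFP cells for 20 of 20 cytosolic proteins, by a median of 0.32, where 55.7% of all listed genes had a difference above 0, with a median of 0.19. Nothing is read from that count, since members chosen for a low GFP value are compared on it: of the 862 genes listed in the same way 98.6% had a difference above 0, with a median of 1.04. The difference also depended on how libraries were scaled. It was above 0 in 11 of 20 with a median of 0.02 when median-of-ratios size factors replaced the totals, and in 3 of 20 with a median of -0.22 when libraries were scaled to their reads outside the table.

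**Figure D2:**
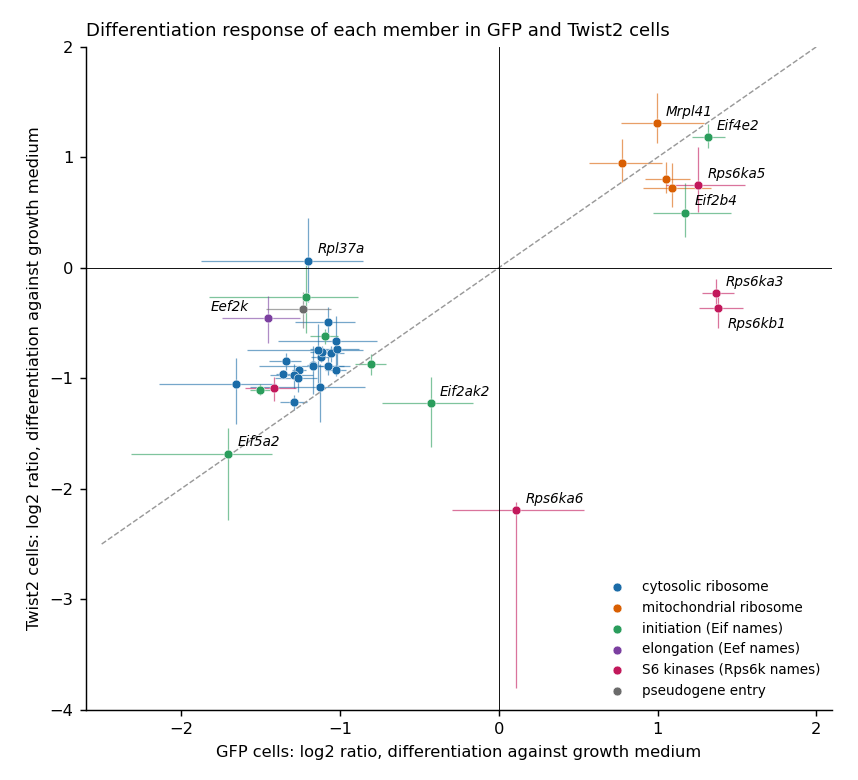
Log2 ratio of CPM + 1 between differentiation and growth medium in GFP cells (horizontal axis) and Twist2 cells (vertical axis), 1 point per member, with lines for the exact 95% counting intervals and a dashed line where the values are equal. The cytosolic proteins other than Rpl37a sit at the lower left above the dashed line, Rpl37a lies just above 0 on the vertical axis, the mitochondrial ones are at the upper right, and Rps6kb1, Rps6ka3 and Rps6ka6 lie far below the dashed line.

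The 4 listed mitochondrial ribosomal proteins, of 78 names, were listed for high values in a differentiation library, Mrpl49 and Mrpl53 in GFP cells and Mrpl41 and Mrps34 in Twist2 cells. Their values are therefore a description of these genes only. Mrpl49, of the large subunit, was at 64.4, 135, 56.5 and 99.3 CPM, with log2 ratios of 1.05 [0.92, 1.20] in GFP and 0.80 [0.67, 0.95] in Twist2 cells. Mrpl53 was at 27.8, 60.4, 28.6 and 47.9 CPM, with log2 ratios of 1.09 and 0.73. Mrpl41 was at 19.2, 39.2, 19.5 and 49.9 CPM, with log2 ratios of 0.99 [0.77, 1.29] and 1.31 [1.13, 1.59], and was the only mitochondrial member past 2-fold in Twist2 cells. Mrps34, of the small subunit, was at 26.2, 45.5, 28.6 and 56.1 CPM, with log2 ratios of 0.77 and 0.94. For each of the 4, both differentiation libraries lay above both growth libraries. In GFP cells 2 of the 4 were past 2-fold.

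Ratios between 2 genes of the same library do not depend on the scaling of that library. The ratio of Rplp0 to Mrpl49 was 21.6 in GFP growth medium and 4.04 in GFP differentiation medium, and 28.7 and 8.38 in the Twist2 libraries. The ratio of Rpl4 to Mrpl41 was 99.8 and 21.7 in the GFP libraries and 95.01 and 20.2 in the Twist2 libraries. The gap between the mitochondrial and the cytosolic median was 2.17 on the log2 scale in GFP cells and 1.76 in Twist2 cells. Its size in GFP cells follows in part from the listing. All 20 cytosolic proteins passed the 2-fold limit there as lower, and Mrpl49 and Mrpl53 were listed only for passing it as higher. The ratios of 2 genes above use the same selected values. The direction of both groups was also the same under each scaling tried. In GFP cells the cytosolic median was -0.81 with size factors and -0.39 when scaled to reads outside the table, and 20 of 20 stayed below 0. The number past 2-fold did not hold: 2 of 20 were lower with size factors and 0 when scaled to reads outside the table.

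For comparison with the cytosolic starts, the windows of 2 mitochondrial members read as follows, with capitals as above.
Mrpl41, chr2:24975079-24975138, minus strand: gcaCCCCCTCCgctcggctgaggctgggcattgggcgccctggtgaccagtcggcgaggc
Mrpl49, chr19:6057736-6057795, minus strand: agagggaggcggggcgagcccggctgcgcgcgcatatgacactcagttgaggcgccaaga
The run of Mrpl41 lay far upstream of its start, and Mrpl49 had none.

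**Figure D3:**
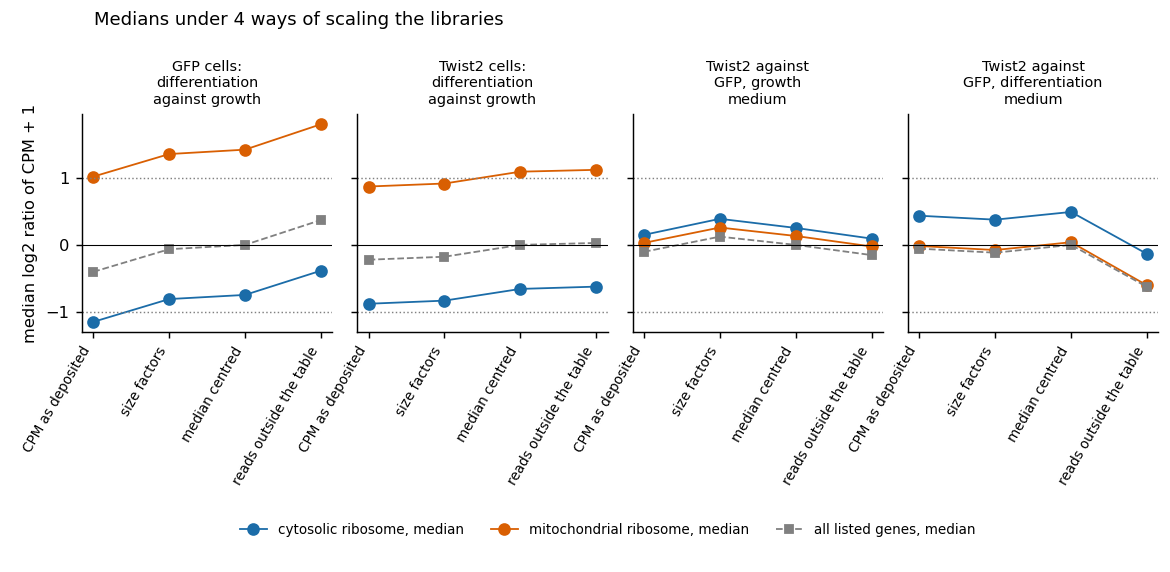
Median log2 ratio (vertical axis) of the 20 cytosolic and 4 mitochondrial ribosomal proteins and of all listed genes in the 4 comparisons under 4 scalings of the libraries (horizontal axis). The cytosolic median stays below and the mitochondrial median above 0 in both differentiation comparisons, whereas the cytosolic median in differentiation medium, Twist2 against GFP, goes from 0.44 to -0.13 when libraries are scaled to the reads outside the table.

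Initiation factor names held members in both directions. In GFP cells 4 of 8 were lower and 2 were higher, with a median of -0.95, where 40.9% of all listed genes tested were lower and 32.6% higher and the median was -0.40. In Twist2 cells 3 were lower and 1 was higher, with a median of -0.74, where 24.5% of all were lower and 26.5% higher and the median was -0.22. Below 0 were 6 of 8 in each comparison. Eif4b, which stimulates the helicase that unwinds the 5′ end of the mRNA, was at 859, 303, 864 and 402 CPM. Its log2 ratios were -1.50 [-1.57, -1.44] in GFP and -1.10 [-1.15, -1.05] in Twist2 cells. Both differentiation libraries were far below both growth libraries, which were nearly equal.

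The eIF3 complex, a scaffold that holds the small subunit and the mRNA, was represented by 2 subunits. Eif3f was at 353, 165, 415 and 270 CPM, with log2 ratios of -1.10 in GFP and -0.62 in Twist2 cells. Eif3e was at 248, 142, 225 and 123 CPM, with log2 ratios of -0.80 and -0.87. For Eif3e the difference between the 2 ratios, -0.06, was within its counting error (SE 0.07). The start windows of Eif4b and Eif3f, the initiation members in which the search found runs, are given for comparison with those of the ribosomal proteins.
Eif4b, chr15:102073733-102073792, plus strand: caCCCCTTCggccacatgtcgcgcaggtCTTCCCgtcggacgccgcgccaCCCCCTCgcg
Eif3f, chr7:108934375-108934434, plus strand: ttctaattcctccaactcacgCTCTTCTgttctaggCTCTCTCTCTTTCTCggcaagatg

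The 2 cap-binding relatives of Eif4e went in opposite directions in GFP cells. Eif4e2, also called 4EHP, which binds the cap without recruiting the initiation scaffold and is known as a repressor of translation, was at 109, 273, 86.4 and 197 CPM. Its log2 ratios were 1.31 [1.22, 1.43] in GFP and 1.18 [1.08, 1.30] in Twist2 cells. Eif4e3 was at 14.9, 5.85, 17.0 and 13.99 CPM, with log2 ratios of -1.21 [-1.83, -0.89] in GFP and -0.26 [-0.59, 0.03] in Twist2 cells. The GFP differentiation library was thus the low one for Eif4e3, and the other 3 libraries lay close together.

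Of the other initiation names, Eif5a2 is a paralogue of the hypusine-carrying factor Eif5a, which acts mainly in elongation. It was at 21.7, 5.96, 19.1 and 5.26 CPM, with log2 ratios of -1.70 [-2.32, -1.43] and -1.68 [-2.28, -1.45], the most negative in GFP cells among all 39 members. Eif2b4, a subunit of the exchange factor that recharges eIF2 with GTP, was at 20.8, 48.3, 20.2 and 29.0 CPM, with log2 ratios of 1.17 and 0.50. Eif2ak2, the kinase PKR, which inhibits initiation when it senses double-stranded RNA, was at 25.2, 18.5, 24.6 and 9.95 CPM. Its log2 ratio was -0.43 [-0.74, -0.16] in GFP and -1.22 [-1.62, -0.99] in Twist2 cells, so the low library was Twist2 differentiation medium.

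The only elongation name was Eef2k, the kinase that inhibits elongation factor 2. It was at 56.5, 20.0, 37.9 and 27.4 CPM, with log2 ratios of -1.45 [-1.75, -1.25] in GFP and -0.45 [-0.68, -0.26] in Twist2 cells. The elongation factors themselves were not analysed here.

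**Figure D4:**
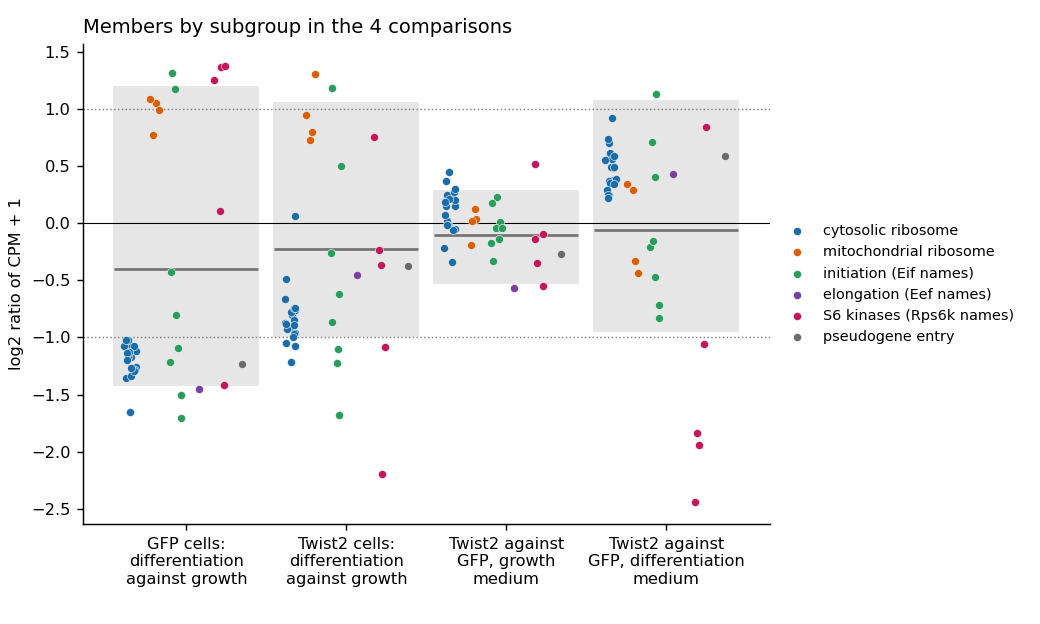
Log2 ratio of CPM + 1 of each member in the 4 comparisons, coloured by subgroup, with the grey box and line giving the quartiles and median of all listed genes and dotted lines at 2-fold. In growth medium every member lies between the dotted lines, and in differentiation medium, Twist2 against GFP, 4 S6 kinases lie below -1 while the cytosolic proteins lie between 0.22 and 0.92.

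In growth medium, Twist2 against GFP, 0 of 39 members were past 2-fold in either direction, where 10.6% of all listed genes tested were lower and 5.21% were higher. The median of the members was 0.01. Of the cytosolic proteins 13 were above and 7 below 0, against 42.8% of all listed genes above 0. Their median was 0.15, with a range of -0.34 (Rpl37a) to 0.45 (Rpl12). The count is not read as a result, because GFP growth medium, the library compared with, is also the reference of the listing. Of the 862 genes listed only for a low value in GFP differentiation medium, 70.6% were above 0, with a median of 0.18. Of the 18 cytosolic proteins listed in that way, 13 were above 0, with a median of 0.17. The signs depended on the scaling, with 19 of 20 above 0 when size factors were used. Rpl12 had the highest cytosolic value, with an interval of 0.22 to 0.71. Outside the ribosome the extremes were Eef2k, at -0.56 [-0.76, -0.39], and Rps6ka4, at 0.52 [0.42, 0.63].

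In differentiation medium, Twist2 against GFP, 1 of 39 members was higher (Eif4e3, 1.13 [0.81, 1.73]) and 4 were lower, where 25.4% of all listed genes tested were higher and 25.2% were lower. All 20 cytosolic proteins were above 0 and none reached 2-fold, with a median of 0.44, from 0.22 (Rpl23) to 0.92 (Rpl37a), where 48.9% of all listed genes were above 0. Nothing is read from that count, because a low value in GFP differentiation medium, the library compared with, is what put 18 of the 20 in the table. All 862 genes listed in that way were above 0, with a median of 1.15, against 0.49 for the 18. The direction held with size factors (median 0.38, 20 of 20) but not when libraries were scaled to reads outside the table (median -0.13, 5 of 20 above 0), a scaling that also moved the median of all listed genes from -0.06 to -0.63. The cytosolic median lay above that of all listed genes under each of these scalings. The same listing favours that position, so it is not read as a result. The GFP differentiation library, with the lowest cytosolic level, also had the most reads in listed genes, at 65.1% against 36.9% to 47.2% in the others. Its summed myogenic markers were also the highest, with most of that sum from Myh3. Whether the share of reads in listed genes had a part in the difference was not tested. The mitochondrial proteins were divided, with Mrpl41 (0.34) and Mrps34 (0.30) above and Mrpl49 (-0.44) and Mrpl53 (-0.33) below 0.

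Of the S6 kinases, 3 of 5 were higher and 1 was lower in differentiating GFP cells, and 0 were higher and 1 was lower in Twist2 cells. In Twist2 cells Rps6ka6 had a log2 ratio of -2.19 [-3.80, -2.12]. It was not counted, because its higher library, at 9.13 CPM, missed the 10 CPM minimum. Among all listed genes tested, 32.6% were higher and 40.9% lower in GFP cells, and 26.5% were higher and 24.5% lower in Twist2 cells. Rps6kb1 encodes S6K1, the mTORC1 target that phosphorylates ribosomal protein S6. It was at 60.8, 160, 57.0 and 44.0 CPM, so that only GFP differentiation medium was high. Its log2 ratio was 1.38 [1.26, 1.54] in GFP and -0.37 [-0.54, -0.21] in Twist2 cells, and Twist2 against GFP in differentiation medium it was -1.84 [-2.01, -1.72]. Its start window, shown because the S6 kinases with an entry had no run, read as follows.
Rps6kb1, chr11:86544788-86544847, minus strand: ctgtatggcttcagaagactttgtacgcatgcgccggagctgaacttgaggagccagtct

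Rps6ka3, the kinase RSK2 of the MAP kinase pathway, followed the same order, at 116, 301, 91.1 and 77.5 CPM. Its log2 ratio was 1.37 [1.28, 1.48] in GFP and -0.23 [-0.36, -0.10] in Twist2 cells. Rps6ka5, the histone H3 kinase MSK1, was at 19.8, 48.7, 13.2 and 22.9 CPM, with log2 ratios of 1.26 and 0.75. Its close relative Rps6ka4 (MSK2) went the other way, at 126, 46.7, 181 and 84.8 CPM, with log2 ratios of -1.41 [-1.59, -1.27] and -1.09 [-1.20, -0.99]. Rps6ka6 (RSK4) was at 10.2, 11.0, 9.13 and 1.21 CPM, the last from 15 reads, with a log2 ratio of -2.44 for Twist2 against GFP in differentiation medium. In that comparison 4 of the 5 kinases were lower, with a median of -1.84, where 25.2% of all listed genes tested were lower, and Rps6ka4 was at 0.85. Nothing is read from the count, because Rps6kb1, Rps6ka3 and Rps6ka5 were listed only for a high value in GFP differentiation medium and Rps6ka6 only for a low one in Twist2 differentiation medium. All 471 genes listed only for a high value in GFP differentiation medium were below 0 there, with a median of -0.83, and in Twist2 differentiation against growth medium 90.2% of them were above 0, where of these 3 kinases only Rps6ka5 was.

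Transcript length moved with some of these values. Listed genes were divided into 5 groups by the length of the principal transcript, and 19 of 20 cytosolic and 4 of 4 mitochondrial proteins fell into the shortest group (303 to 2054 bp), with the S6 kinases in the third to the fifth. In differentiation medium, Twist2 against GFP, the median log2 ratio of all listed genes was 0.37 in the shortest and -0.75 in the longest group. Against the median of its own length group, the cytosolic median was 0.11 in that comparison, -0.91 in GFP differentiation and -1.20 in Twist2 differentiation. The difference of the 2 differentiation responses in the cytosolic group was 0.001 against its length group, where the median of all genes in the shortest group was 0.32. The mitochondrial group stood at 1.27 and 0.53 above its length group in GFP and Twist2 differentiation. The S6 kinases stood at -1.19 in differentiation medium, Twist2 against GFP. The part of length in these results was not tested.

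**Figure D5:**
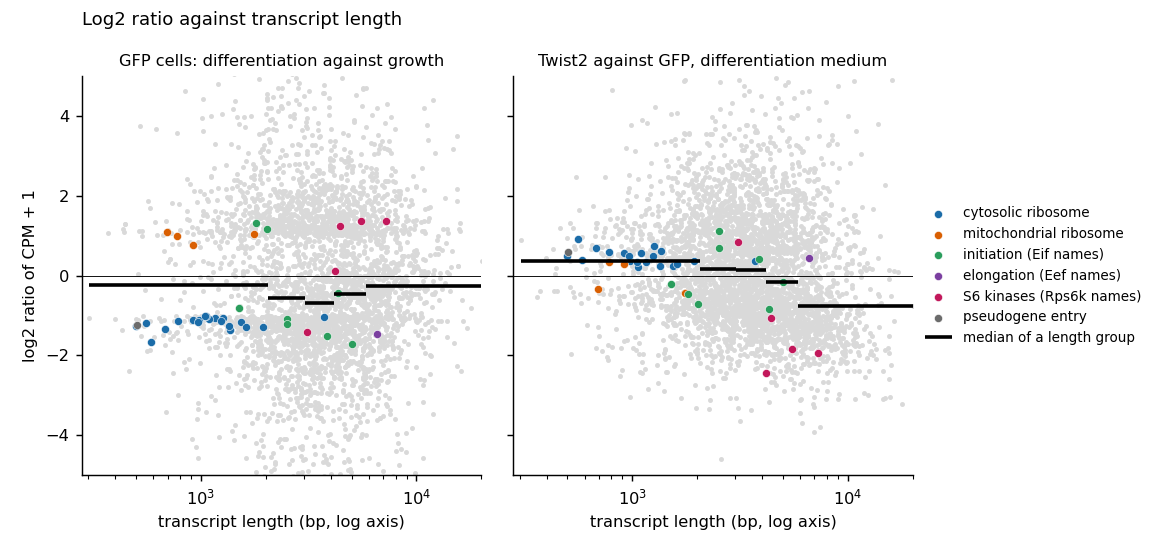
Log2 ratio of CPM + 1 against transcript length in bp (log axis) for all listed genes (grey) and the members (coloured), for GFP differentiation (left) and for Twist2 against GFP in differentiation medium (right), with black bars at the median of each of 5 length groups. On the right the bars step down from 0.37 to -0.75 with length and the cytosolic proteins lie around the first bar, while on the left they lie well below it.

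Many cytosolic ribosomal proteins have near-identical processed pseudogenes, which can take reads or cause them to be discarded. Other annotated genes with a transcript at least 95% identical over at least 50% of the coding sequence were counted as copies. They numbered 27 for Rps2, 22 for Rps12, 13 for Rpl31 and 12 for Rpsa, against 1 for Rpl4, Rps9 and Rpl23. Per coding kilobase, levels in GFP growth medium ran from 35.2 (Rpl13) to 4115 CPM (Rplp1), although most of these proteins are present in equal numbers in a ribosome. The 10 genes with 4 or fewer copies had a median of 1040 CPM per coding kilobase and the 10 with 5 or more had 206, so levels between these genes are uncertain. Median log2 ratios were -1.17 and -1.13 in GFP cells, where the listing limit holds them together, and -0.86 and -0.93 in Twist2 cells. Rps15a-ps4, itself such a copy, was at 72.9, 30.4, 60.2 and 46.3 CPM, with log2 ratios of -1.23 in GFP and -0.37 in Twist2 cells. Reads over such copies may be shared among them.

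Some members share bases with other genes, and whether counting used the strand is not stated in the labels. The transcript of Mrpl53 lies on 695 bp of the same-strand gene Gm42688, and Mrps34 shares 763 bp with Nme3 on its strand and 1309 bp with Mapk8ip3 on the other. Eif4e3 shares 373 bp with Gm20696, and Rpl31 shares 420 bp with Tbc1d8 on the other strand. Values for these genes are uncertain to that extent.

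Of 71 names of factors that build ribosomes 12 were listed. In GFP cells 4 were lower and 1 was higher, with a median of -0.69, where 40.9% of all listed genes tested were lower and 32.6% higher and the median was -0.40. In Twist2 cells 5 were lower and 0 higher, with a median of -0.97, where 24.5% of all were lower and 26.5% higher and the median was -0.22. Npm1, a nucleolar chaperone, was at 453, 109, 409 and 136 CPM, with log2 ratios of -2.04 and -1.58. Ncl, the nucleolar protein nucleolin, was at 833, 349, 753 and 285 CPM, with log2 ratios of -1.25 and -1.40. For both, the differentiation libraries lay far below the growth libraries. Fbl, the methyltransferase of ribosomal RNA, was at 21.1, 7.15, 15.6 and 15.8 CPM, so that only GFP differentiation medium was low. Rrp12, which acts in subunit export, went the other way at 45.7, 133, 41.4 and 59.0 CPM, with a log2 ratio of 1.52 in GFP cells.

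Of 20 termination, poly(A) binding and recycling names 3 were listed, with 1 higher and 1 lower in each differentiation comparison. The shares of all listed genes tested were 32.6% higher and 40.9% lower in GFP cells, and 26.5% and 24.5% in Twist2 cells. Pabpc1, the cytoplasmic poly(A)-binding protein, whose own mRNA also begins with an oligopyrimidine tract, was at 1659, 196, 1743 and 549 CPM. Its log2 ratios were -3.07 [-3.15, -3.01] in GFP and -1.67 [-1.71, -1.63] in Twist2 cells, and Twist2 against GFP in differentiation medium it was 1.48. GFP differentiation medium was the lowest library, as for the cytosolic ribosomal proteins. Abce1, which splits ribosomes for recycling, was at 260, 239, 207 and 117 CPM, and Pelo, which rescues stalled ribosomes, at 10.7, 25.4, 9.31 and 20.1 CPM.

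Of 25 names of mTORC1 and translation signalling 7 were listed, with 1 higher and 4 lower in GFP cells and 2 higher and 0 lower in Twist2 cells. The shares of all listed genes tested were 32.6% higher and 40.9% lower in GFP cells, and 26.5% and 24.5% in Twist2 cells. Ddit4 (REDD1), an inhibitor of mTORC1, was at 47.9, 18.7, 60.4 and 232 CPM. Its log2 ratio was -1.31 [-1.62, -1.10] in GFP and 1.92 [1.82, 2.06] in Twist2 cells, so that Twist2 differentiation medium held the highest level and GFP differentiation medium the lowest. Rragd, a GTPase that brings mTORC1 to the lysosome, was at 152, 349, 38.7 and 220 CPM, with log2 ratios of 1.19 and 2.47. Pdcd4, an inhibitor of the initiation helicase, was at 105, 33.4, 72.1 and 40.7 CPM, with log2 ratios of -1.63 and -0.81. GFP differentiation medium was again the lowest library for Pdcd4.

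Of 24 integrated stress response names 6 were listed, with 3 higher and 2 lower in GFP cells and 2 higher and 1 lower in Twist2 cells. The shares of all listed genes tested were 32.6% higher and 40.9% lower in GFP cells, and 26.5% and 24.5% in Twist2 cells. Chac1, a target of this response, was at 6.67, 18.5, 5.96 and 18.1 CPM, and Ddit3 (CHOP) at 13.9, 25.8, 16.9 and 36.2 CPM, both above their growth levels in either differentiation library. Slc7a5, an amino acid transporter, was high only in GFP differentiation medium, at 89.6, 287, 125 and 138 CPM. The 2 lower in GFP cells were Cebpb and Pck2. Cebpb was at 16.1, 6.17, 22.7 and 33.1 CPM, with log2 ratios of -1.25 in GFP and 0.53 in Twist2 cells. Pck2 was at 34.1, 11.5, 53.5 and 24.1 CPM, with log2 ratios of -1.49 and -1.12. Among enzymes that charge tRNAs and their partner proteins, 2 of 23 cytosolic and 5 of 17 mitochondrial names were listed. Nars2, the mitochondrial asparagine enzyme, was at 15.1, 74.9, 12.9 and 23.2 CPM, with log2 ratios of 2.24 in GFP and 0.80 in Twist2 cells. Lars2, the mitochondrial leucine enzyme, was at 229, 441, 963 and 329 CPM, highest in Twist2 growth medium. Of 19 mitochondrial translation factor names only Guf1 was listed, at 29.5, 16.9, 22.8 and 9.38 CPM, so that it did not share the direction of the mitochondrial ribosomal proteins.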

How the data were processed

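The authors deposited a table of CPM values for 4 libraries with 3 columns of log2 ratios against GFP growth medium, per the file headers. The deposited log2 values equal log2 ratios of CPM + 1 within 1.3e-11. The table is a selection: each of its 3760 genes reached 10 CPM in 2 or more libraries and differed by a log2 ratio of 1 or more in size in at least 1 comparison. TopHat2 2.0.0, DESeq2 1.6.3 and the build GRCm38 (mm10) are named in the submitters' processing notes, with no role. No source used here gives the read counter, the annotation or the strand setting. Reads per gene were recovered from the CPM steps, with 100% of values whole within 0.001 reads. A separate check of low values did not find the step in 2 of the 4 columns, so printed reads, totals and intervals rest on this recovery.

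With 1 library per group, no count model was fitted and no p-value is given. Log2 ratios used a pseudocount of 1 CPM, a 2-fold threshold and a minimum of 10 CPM in the higher library. Intervals were exact Clopper-Pearson 95% intervals (Python 3.11.15, scipy 1.17.1), checked on simulated data. Members were named by the symbol rule, with all 39 open to naming. The members and lists were chosen with earlier results of these data known. Positions, lengths and copies came from GENCODE M21 and start windows from RefSeq. Alternatives tried were other pseudocounts, thresholds, minimum levels and scalings. The values of 1 member are not reported here by name.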

Additional observations from a re-analysis of the deposited data

Results flagged for a closer look

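For 2 members the counting intervals of the differentiation response lay on opposite sides of 0 in the 2 kinds of cells. Rps6ka3 had a log2 ratio of 1.37 in GFP and -0.23 in Twist2 cells, and Rps6kb1 one of 1.38 in GFP and -0.37 in Twist2 cells. For 3 members the intervals of Twist2 against GFP lay on opposite sides of 0 in the 2 media. Eef2k was at -0.56 in growth and 0.43 in differentiation medium, Rpl4 at -0.05 and 0.25, and Rps15a-ps4 at -0.27 and 0.59. All but Eef2k were listed only for their value in GFP differentiation medium, 1 of the libraries compared. Each value compares 2 libraries, the difference was not tested between conditions, and the intervals cover counting error only.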

How the results depend on the processing

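No gene's direction past the 2-fold threshold was reversed under any alternative tried. Over all members, comparisons and alternatives, 937 results stayed on their side of the threshold, 137 lost and 18 gained a call. With size factors, members lower in GFP differentiation numbered 6 (median -0.76), cytosolic 2 (-0.81), and mitochondrial higher 4 (1.36). Growth-medium medians, Twist2 against GFP, were 0.25 (members) and 0.39 (cytosolic). Differences of the responses had medians of -0.015 (members), 0.016 (cytosolic) and -0.33 (mitochondrial). Scaled to reads outside the table, lower members numbered 0 (median -0.32), cytosolic 0 (-0.39), and mitochondrial higher 4 (1.81) in GFP differentiation. In Twist2 differentiation 4 members were higher and 1 lower (-0.52), with 0 cytosolic lower (-0.62) and 3 mitochondrial higher (1.12). In differentiation medium, Twist2 against GFP, 0 members were higher and 8 lower (-0.22), the cytosolic median was -0.13, and 1 mitochondrial member was lower (-0.60). Differences of the responses were -0.25 (members), -0.22 (cytosolic) and -0.57 (mitochondrial). Centred on the median of all listed genes, lower members numbered 5 (-0.71), cytosolic 1 (-0.75), and mitochondrial higher 4 (1.43) in GFP differentiation. In Twist2 differentiation 4 members were higher and 2 lower (-0.55), with 0 cytosolic lower (-0.66) and 3 mitochondrial higher (1.096). The cytosolic median in growth medium was 0.25 and the difference of the cytosolic responses 0.14. At a 3-fold threshold, 0 members were higher and 2 lower in GFP differentiation, with 1 cytosolic lower and 0 mitochondrial higher. In Twist2 differentiation 0 were higher and 1 lower, with 0 cytosolic and 0 mitochondrial, and in differentiation medium, Twist2 against GFP, 0 were higher. A pseudocount of 5 CPM left 1 mitochondrial member higher in GFP differentiation, 4 members and 1 cytosolic member lower in Twist2 differentiation, and 0 higher for Twist2 against GFP in differentiation medium. A pseudocount of 0.1 CPM gave 2 higher members there, 1 of them cytosolic. Without the S6 kinases and the pseudogene entry, an alternative added after seeing the data, 4 members were higher in GFP differentiation and 0 lower in differentiation medium, Twist2 against GFP. The cause of these changes was not tested beyond the construction of each alternative. Relative to the deposited totals, size factors moved the GFP differentiation median of all listed genes from -0.40 to -0.06, and scaling to reads outside the table moved it to 0.37.

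No paired analysis was possible because each group had 1 library and the labels give no replicate numbers. Depth limits the members under 30 CPM most, as with Rpl37a, Rps12, Eif4e3, Eif5a2 and Rps6ka6.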
